A study of Homo sapiens with 6 samples.

Results

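The genes described here encode the actin and non-muscle myosin cytoskeleton of human umbilical vein endothelial cells (HUVECs), primary cells that line the vein of the umbilical cord. A list of 35 gene symbols was matched to the platform's probe annotation, and a gene was kept where a probe set carried its symbol and no other. This gave 30 measured genes of the 19775 measured in all, each read at whichever of its probe sets was brightest on average over the 6 arrays. ACTG1 was read only by probe sets that carry the symbol of ACTB as well. CAP1, WDR1, ACTR2 and FLNA were not analysed here. The cells of 1 group received a small interfering RNA (siRNA) that targets ANRIL, a long noncoding RNA of the CDKN2B locus, and those of the other a scrambled siRNA. Both were transfected transiently with the same carrier, TransIT-X2, and each group had 3 samples on Affymetrix Human Genome U133 Plus 2.0 arrays. The time between transfection and harvest is not given in the sources used here. The study used the comparison to look for genes downstream of ANRIL.

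Actin polymerises from monomers into filaments that carry the shape, the junctions and the movement of endothelial cells. Profilins and thymosins hold monomers, the ARP2/3 complex starts branches, formins and Ena/VASP proteins extend filaments, capping protein stops them and cofilins take them apart. Non-muscle myosin II pulls on these filaments and, in endothelium, the tension opens or tightens the barrier between cells. Many actin genes are known targets of serum response factor, SRF, and its cofactor MRTF, whose activity follows the pool of actin monomers.

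The siRNA duplex is shown because it is the agent that the ANRIL siRNA group received in place of the scrambled sequence. In the antisense strand the capitals mark bases 2 to 8 as counted from its 5′ end. Of its 27 bases, 25 pair with the sense strand. Which bases guide the siRNA to its target in the cell was not analysed. Both strands are written 5′ to 3′.
sense strand: ggauaugugccaugaguaagaauaa
antisense strand: uUAUUCUUacucauggcacauauccau
ANRIL, listed as CDKN2B-AS1, was read by 1 probe set near the floor of the array. It had log2 intensities of 3.69, 4.05 and 4.05 with ANRIL siRNA, against 4.08, 4.05 and 3.95 with control siRNA, and differed by −0.098 ± 0.097 (SE, n = 3 per group, limma adjusted p = 0.606). Its values in the groups overlapped, so the arrays gave no check of the knockdown.

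All values are log2 intensities on the RMA scale, and every difference is ANRIL siRNA minus control siRNA on that scale. Array medians lay between 6.14 and 6.23. Over all probe sets, which are no independent replicates, 2 arrays of a group correlated at r = 0.9971 to 0.9977 and 2 arrays of different groups at 0.9964 to 0.9974. Nothing in the labels says that the samples of a group came from separate donors or cultures, so the p-values measure only the spread between these samples, which may be technical. Adjusted p-values are over all genes where a gene is read at its brightest probe set, and over all probe sets where another probe set is named. The differences depended on signal over the whole array. The median difference was 0.066 among genes in decile 4 of mean signal, with 27.9% of genes below 0, and −0.069 in decile 10, the brightest, with 87.7% below 0. Of the 30 cytoskeletal genes, 26 lay in decile 10, 3 in decile 9 and 1 in decile 8, so each is set beside genes of its own decile. Decile 10 is wide, from 10.71 to 15.08. Probe sets of other genes had a median difference of −0.063 at means of 12 to 14 and −0.012 at 14 and over.

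No cytoskeletal gene passed the test. With limma and Benjamini-Hochberg adjustment over all genes, 0 of 30 were called at an adjusted p under 0.05, beside 0 of 19775 genes (0%), and the smallest adjusted p among the 30 was 0.154. The differences leaned downward, with 26 of 30 genes below 0 and a median of −0.061, but 13 were below 0 under cyclic loess, a scaling that removes a trend with signal, and 15 when quantile normalization was run again. Over all genes the median difference was −0.0046, and 51.4% were below 0. Read against their own decile the cytoskeletal genes did not stand lower, with 14 of 30 below the median of their decile and a median distance from it of 0.0081. In bulk RNA, fewer cells of a type and less RNA per cell cannot be told apart.

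At an unadjusted p under 0.05, 5 of 30 genes were lower and none was higher, beside 8.16% of all genes lower and 9.83% higher. In decile 10 the same count was 4 of 26 (15.4%), beside 15.6% of all genes of that decile. All 3 ANRIL siRNA values lay below all 3 control siRNA values for 11 of 30 genes, and above all of them for 0, beside 12.8% and 10.6% of all genes. In decile 10 this held for 9 of 26 (34.6%), beside 35.9% of all genes of that decile. The shares of the cytoskeletal genes were thus close to those of genes of like signal.

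**Figure D1:**
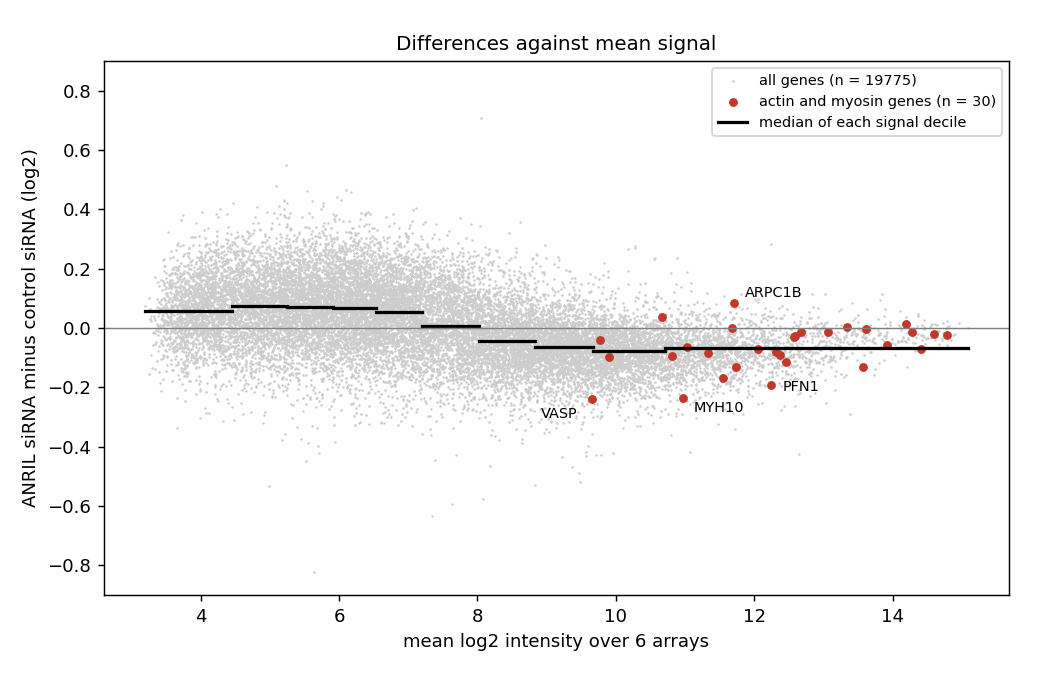
The difference of each gene (y axis, ANRIL siRNA minus control siRNA, log2) is plotted against its mean log2 intensity over 6 arrays (x axis), with all 19775 genes in grey, the 30 actin and myosin genes in red and the median of each signal decile as a black line. The decile medians pass from 0.058 in decile 1 to −0.069 in decile 10, and the red points scatter about the line of the bright deciles, with VASP and MYH10 lowest and ARPC1B highest.

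With an intensity-trended robust prior, which lets the expected spread follow the signal, 5 of 30 genes passed and all 5 fell, beside 2.15% of all genes called lower and 0.582% called higher. They were VASP, MYH10, PFN1, ARPC2 and MYH9, with adjusted p-values of 0.0278, 0.0243, 0.0255, 0.0263 and 0.0473. In decile 10, 4 of 26 passed (15.4%), beside 8.49% of all genes of that decile, a difference in shares that was not tested. With the same prior 0 of the 30 passed under either of those scalings, without ANRIL siRNA replicate 1 or without control siRNA replicate 2. The count was 1 without ANRIL siRNA replicate 3 (ARPC2), 1 without control siRNA replicate 1 (VASP), 3 without control siRNA replicate 3 and 7 without ANRIL siRNA replicate 2. With the constant prior, 0 passed under these scalings or without any 1 array. The 7 without ANRIL siRNA replicate 2 were the 5 named and ARPC1A and IQGAP1.

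**Figure D2:**
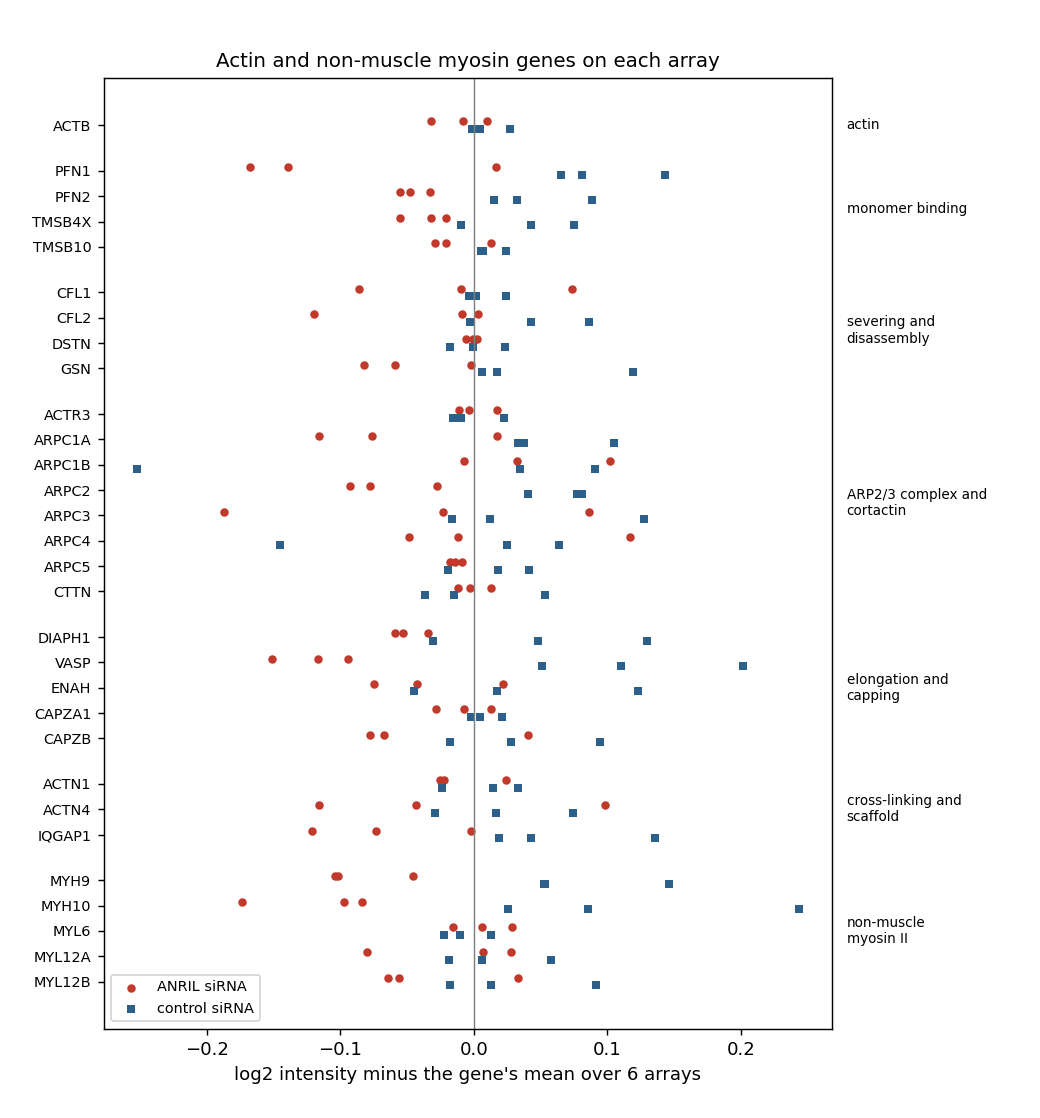
Each row is 1 gene, grouped by role, and each point is 1 array, placed by its log2 intensity minus that gene's mean over 6 arrays (x axis); red circles are ANRIL siRNA and blue squares are control siRNA. For VASP, MYH9 and MYH10 the 3 red circles lie to the left of all 3 blue squares with a clear gap, while for ACTB, DSTN and MYL6 the colours mix.

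Array by array, the samples of a group were not alike. On ANRIL siRNA replicates 1, 2 and 3, 4, 13 and 6 of the 30 genes lay above their own mean over 6 arrays, against 19, 25 and 22 on control siRNA replicates 1, 2 and 3. ANRIL siRNA replicate 2 was the array of its group nearest the controls, and control siRNA replicate 2 the highest of all.

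Actin itself lay close to 0. ACTB, the gene of beta-actin, had log2 intensities of 14.57, 14.59 and 14.61 with ANRIL siRNA, against 14.60, 14.63 and 14.60 with control siRNA, and differed by −0.020 ± 0.056 (SE, n = 3 per group, limma adjusted p = 0.867). The groups overlapped, and the sign turned to 0.043 after cyclic loess. The other 2 probe sets of ACTB differed by 0.0035 and −0.016. The 9 probe sets that carry the symbols of both ACTB and ACTG1, the gene of gamma-actin, cannot be assigned to either. Of these, 8 were above 0, and they ranged from −0.016 to 0.068 with a median of 0.054. These probe sets share the same symbols and are no separate observations. In several of the 8 all ANRIL siRNA values lay above all controls. This held for 10.6% of all genes and 1.11% of those in decile 10, which also holds much dimmer genes. The brightest had 14.70, 14.69 and 14.69 with ANRIL siRNA, against 14.63, 14.64 and 14.65 with control siRNA. In the 1 below 0 all ANRIL siRNA values lay below all controls, beside 12.8% of all genes and 35.9% of those in decile 10. All of these probe sets lay above 14 in mean log2 intensity, where the highest value of any array was 15.07 to 15.09.

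The array also reads ACTB by control probe sets at the 3′ end, the middle and the 5′ end of its transcript. The 3′ probe set had 14.46, 14.49 and 14.53 with ANRIL siRNA, against 14.51, 14.55 and 14.52 with control siRNA, and its mean differed by −0.031. The 5′ probe set had 13.68, 13.69 and 13.96 with ANRIL siRNA, against 13.95, 13.96 and 14.03 with control siRNA, and its mean differed by −0.20. Replicates 1 and 2 of ANRIL siRNA were low at the 5′ end, and replicate 3 lay within the range of the controls. The 3′ signal exceeded the 5′ signal by 0.72 ± 0.13 with ANRIL siRNA and by 0.54 ± 0.052 with control siRNA (SD, n = 3 each), a difference of 0.17 with a two-sided exact permutation p of 0.2, where 0.1 is the smallest possible. For GAPDH, a glycolytic gene read the same way, the 3′ minus 5′ signal was 0.058 ± 0.030 with ANRIL siRNA and −0.0013 ± 0.012 with control siRNA (two-sided exact permutation p = 0.1). For ACTB the 3′ minus middle signal was 0.16 ± 0.027 with ANRIL siRNA and 0.13 ± 0.015 with control siRNA (SD, n = 3 each, two-sided exact permutation p = 0.1). The difference of ACTB between the groups thus ran from −0.031 to −0.20 along 1 transcript. The part of this difference between transcript ends in the differences of other genes was not tested.

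**Figure D3:**
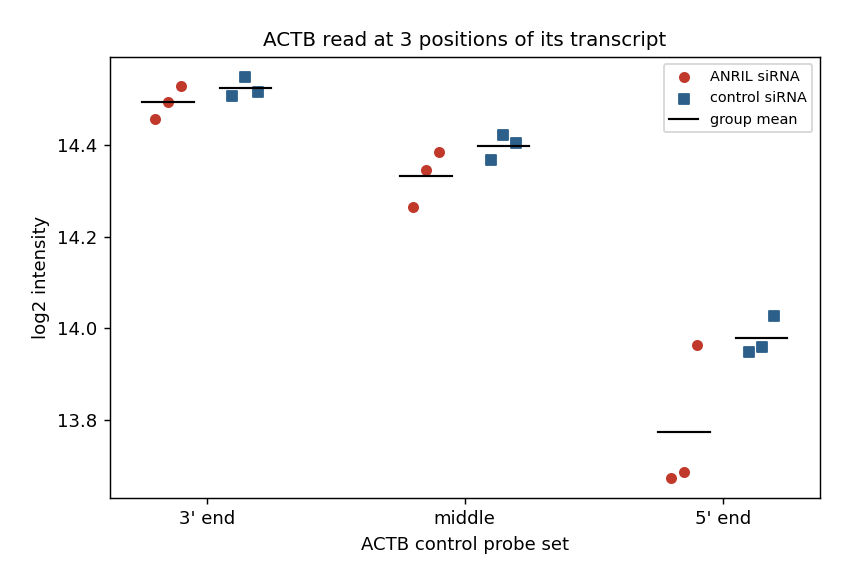
Log2 intensity (y axis, not starting at 0) of the ACTB control probe sets at the 3′ end, the middle and the 5′ end (x axis), with red circles for ANRIL siRNA, blue squares for control siRNA and black bars for the group means (n = 3 each). The groups differ by −0.031 at the 3′ end and by −0.20 at the 5′ end, where replicates 1 and 2 of ANRIL siRNA lie apart from the other 4 arrays.

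Among the proteins that bind actin monomers, all 4 measured genes were below 0, 3 of them under cyclic loess, and 3 did not overlap between the groups, beside 35.9% of all genes in decile 10. PFN1, the gene of profilin 1, which feeds monomers to growing filament ends, had log2 intensities of 12.08, 12.26 and 12.10 with ANRIL siRNA, against 12.39, 12.32 and 12.31 with control siRNA. ANRIL siRNA replicate 2 was the nearest to the controls and still lay below all of them. PFN1 differed by −0.19 ± 0.067 (SE, n = 3 per group, limma adjusted p = 0.199), which is 1.14-fold lower, with a 95% interval −0.34 to −0.043, and by −0.11 after cyclic loess. PFN2, a second profilin, had 12.34, 12.32 and 12.31 with ANRIL siRNA, against 12.40, 12.46 and 12.38 with control siRNA, and differed by −0.091 ± 0.057 (SE, n = 3 per group, limma adjusted p = 0.419). TMSB4X and TMSB10, which encode the monomer-sequestering thymosins beta-4 and beta-10, differed by −0.072 and −0.024, and TMSB10 was at 0.037 after cyclic loess. PFN1 thus stood 0.12 below the median of its decile, −0.069, TMSB4X near it and TMSB10 above it. TMSB4X and TMSB10 had means above 14, and both differences lay below −0.012, the median of other genes' probe sets at 14 and over.

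Of the severing and disassembly genes, all 4 measured were below 0, but 2 under cyclic loess and 1 when quantile normalization was run again. GSN alone showed no overlap, beside 35.9% of all genes in decile 10 that were lower without overlap. GSN encodes gelsolin, a calcium-activated severing protein, and had 10.73, 10.81 and 10.75 with ANRIL siRNA, against 10.82, 10.93 and 10.83 with control siRNA, a difference of −0.095 ± 0.061 (SE, n = 3 per group, limma adjusted p = 0.429). At its second probe set, GSN differed by −0.31 ± 0.10 (SE, limma adjusted p = 0.243), again with no overlap, while 4 of its 7 probe sets, all dim, were above 0. CFL1, the main cofilin of non-muscle cells, had 14.26, 14.35 and 14.19 with ANRIL siRNA, against 14.27, 14.30 and 14.27 with control siRNA at its brightest probe set, a difference of −0.015 ± 0.063 (SE, n = 3 per group, limma adjusted p = 0.915). ANRIL siRNA replicates 2 and 3 there lay on opposite sides of all 3 controls. Its second probe set behaved otherwise, with 11.57, 11.61 and 11.63 with ANRIL siRNA, against 11.97, 11.90 and 11.96 with control siRNA. It differed by −0.34 ± 0.063 (SE, limma adjusted p = 0.22), 1.27-fold lower with no overlap, the lowest value among the probe sets of these genes above a mean of 10. Which CFL1 transcripts each probe set reads was not analysed here. CFL2, the second cofilin, differed by −0.084 and was below 0 at all 3 of its probe sets. DSTN, which encodes the related protein destrin, was at −0.0030 where it was brightest, while its next probe set differed by −0.14 ± 0.061 (SE, limma adjusted p = 0.327).

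The branch-forming genes were spread about 0. Of the 8 measured, 5 were below 0 and 3 above, with a median of −0.014, and 3 were below 0 under cyclic loess. ARPC2, which encodes a core subunit of the ARP2/3 complex, had 13.48, 13.50 and 13.54 with ANRIL siRNA, against 13.65, 13.65 and 13.61 with control siRNA, and differed by −0.13 ± 0.057 (SE, n = 3 per group, limma adjusted p = 0.262). The groups did not overlap, but the other 2 probe sets of ARPC2 differed by only −0.015 and −0.043. ARPC1A and ARPC1B encode alternative versions of 1 subunit and had opposite signs. ARPC1A had 12.34, 12.47 and 12.38 with ANRIL siRNA, against 12.49, 12.56 and 12.49 with control siRNA, a difference of −0.12 ± 0.062 (SE, n = 3 per group, limma adjusted p = 0.344). ARPC1B had 11.81, 11.74 and 11.70 with ANRIL siRNA, against 11.45, 11.74 and 11.80 with control siRNA, a difference of 0.085 ± 0.089 (SE, n = 3 per group, limma adjusted p = 0.625), the highest of the 30 genes. It rested on control siRNA replicate 1, which lay below the other 5 arrays, and was −0.020 without that array.

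The other subunits were ACTR3, which encodes ARP3, at 0.0017, ARPC3 at −0.082, ARPC4 at 0.038 and ARPC5 at −0.027. The dimmest probe set of ACTR3, at a mean of 5.75, differed by 0.22 ± 0.079 (SE, limma adjusted p = 0.266). All ANRIL siRNA values there lay above all controls. ARPC4 also has a probe set that carries the symbol of the read-through gene ARPC4-TTLL3. That probe set had 9.83, 9.75 and 9.91 with ANRIL siRNA, against 9.99, 10.15 and 10.23 with control siRNA, a difference of −0.29 ± 0.080 (SE, limma adjusted p = 0.223) with no overlap, and cannot be assigned to ARPC4 alone. ARPC5 disagreed most between its probe sets. Its second probe set had 10.74, 10.81 and 10.85 with ANRIL siRNA, against 10.97, 10.97 and 10.98 with control siRNA and differed by −0.17 ± 0.064 (SE, limma adjusted p = 0.271). Its dimmest had 6.49, 6.44 and 6.67 with ANRIL siRNA, against 6.06, 6.13 and 6.10 with control siRNA and differed by 0.43 ± 0.076 (SE, limma adjusted p = 0.22), the highest value of any probe set of these genes. Both showed no overlap and in opposite directions. CTTN, which encodes cortactin, a protein that stabilises branches, was at −0.0011, and at 0.079 under cyclic loess. Another of its probe sets had 8.35, 8.33 and 8.39 with ANRIL siRNA, against 8.49, 8.64 and 8.65 with control siRNA, and differed by −0.24 ± 0.070 (SE, limma adjusted p = 0.231) with no overlap.

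Among the genes of filament elongation and capping, all 5 measured were below 0, but only 2 under cyclic loess, VASP and DIAPH1. VASP had the lowest difference of all 30. VASP encodes a protein that speeds filament growth at junctions and leading edges and is a known substrate of cyclic nucleotide-dependent kinases. It had log2 intensities of 9.56, 9.50 and 9.54 with ANRIL siRNA, against 9.71, 9.76 and 9.86 with control siRNA. The highest of the ANRIL siRNA arrays lay below the lowest control, and the means were 9.53 ± 0.029 with ANRIL siRNA and 9.78 ± 0.076 with control siRNA (SD, n = 3 each). VASP differed by −0.24 ± 0.062 (SE, n = 3 per group, limma adjusted p = 0.154), 1.18-fold lower with a 95% interval −0.38 to −0.10. It was read by 1 probe set only, lay in decile 8 and stood 0.18 below that decile's median. Cyclic loess gave −0.17 and a second quantile normalization −0.16. When only genes brighter than the median gene were tested, at a constant prior, VASP alone of the 30 passed (limma adjusted p = 0.0396), beside 2.57% of the genes tested so and called lower.

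The Ena/VASP relative ENAH differed by −0.063 and overlapped between the groups, and was at 0.018 after cyclic loess. Its dimmest probe set, at a mean of 4.79, differed by 0.32 ± 0.077 (SE, limma adjusted p = 0.22). All ANRIL siRNA values there lay above all controls. The difference between VASP and ENAH was not tested. DIAPH1, the gene of the formin mDia1, which lengthens unbranched filaments, had 9.84, 9.86 and 9.84 with ANRIL siRNA, against 9.87, 10.03 and 9.95 with control siRNA, and differed by −0.098 ± 0.062 (SE, n = 3 per group, limma adjusted p = 0.425). Its groups did not overlap, by a narrow margin, and 2 of its 4 probe sets were above 0. The capping protein subunits CAPZA1 and CAPZB differed by −0.016 and −0.070, and the third of the 4 CAPZB probe sets by −0.22 ± 0.071 (SE, limma adjusted p = 0.244) with no overlap.

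The cross-linkers were little apart. ACTN1 and ACTN4, which encode the non-muscle alpha-actinins, differed by −0.016 and −0.041, and both were above 0 under cyclic loess. The second probe set of ACTN1 differed by −0.18 ± 0.069 (SE, limma adjusted p = 0.281). IQGAP1, which encodes a scaffold that binds actin, had 11.61, 11.73 and 11.66 with ANRIL siRNA, against 11.77, 11.86 and 11.75 with control siRNA, and differed by −0.13 ± 0.063 (SE, n = 3 per group, limma adjusted p = 0.305). The groups did not overlap there. At its dimmest probe set control siRNA replicate 1 was at 8.82 while the other 5 arrays lay between 7.29 and 7.83.

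Non-muscle myosin II had lower differences at its heavy chains than at its light chains, and 4 of its 5 genes below 0, 2 of them, MYH9 and MYH10, under cyclic loess. MYH10, the heavy chain of myosin IIB, had 10.87, 10.88 and 10.79 with ANRIL siRNA, against 11.05, 11.21 and 10.99 with control siRNA. All ANRIL siRNA arrays lay below all controls, and the means were 10.85 ± 0.049 with ANRIL siRNA and 11.08 ± 0.11 with control siRNA (SD, n = 3 each). MYH10 differed by −0.24 ± 0.071 (SE, n = 3 per group, limma adjusted p = 0.17), 1.18-fold lower with a 95% interval −0.39 to −0.079. Its dimmer probe set had 7.36, 7.13 and 7.27 with ANRIL siRNA, against 7.84, 7.59 and 7.53 with control siRNA, also with no overlap, and differed by −0.40 ± 0.096 (SE, limma adjusted p = 0.22), 1.32-fold lower. After cyclic loess the brighter one was at −0.15. MYH9, the heavy chain of myosin IIA, had 11.45, 11.50 and 11.45 with ANRIL siRNA, against 11.60, 11.70 and 11.60 with control siRNA, again without overlap. MYH9 differed by −0.17 ± 0.060 (SE, n = 3 per group, limma adjusted p = 0.203), 1.12-fold lower, and by −0.087 after cyclic loess.

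The light chains lay nearer 0. MYL6, the essential light chain, had 14.22, 14.18 and 14.20 with ANRIL siRNA, against 14.18, 14.17 and 14.21 with control siRNA, a difference of 0.013 ± 0.056 (SE, n = 3 per group, limma adjusted p = 0.916). MYL12A and MYL12B, near-identical regulatory light chains whose phosphorylation drives contraction, differed by −0.030 and −0.058, and the probe set that carries both symbols by −0.060. The difference between heavy and light chains was not tested.

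**Figure D4:**
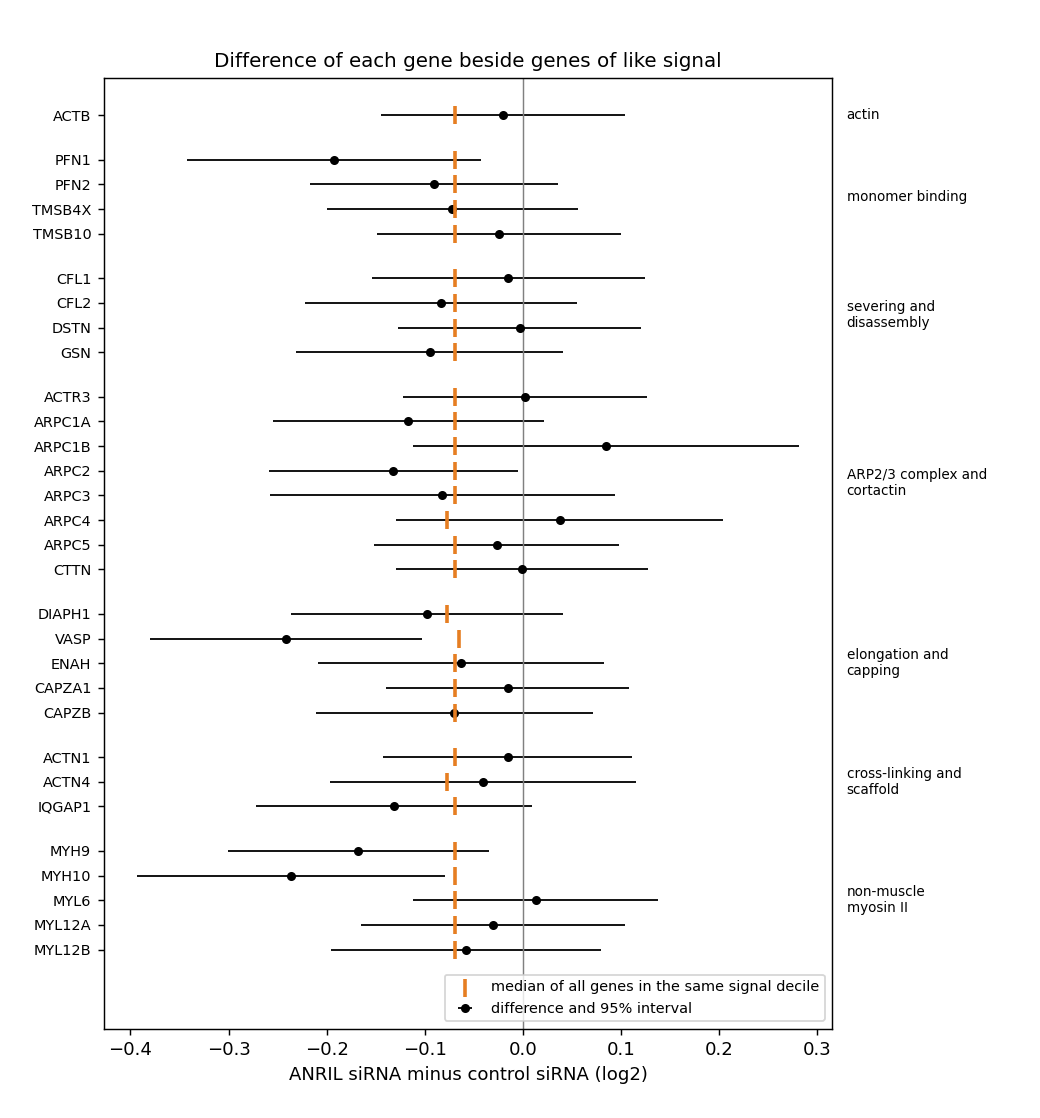
Each row is 1 gene, grouped by role, with its difference (black point, ANRIL siRNA minus control siRNA, log2) and 95% interval (limma, n = 3 per group), and an orange bar at the median of all genes in the same signal decile. The intervals of VASP, MYH10, PFN1, MYH9 and ARPC2 lie below 0, and of these only the intervals of VASP and MYH10 also lie below the orange bar.

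Taking all 80 probe sets that carry a single member's symbol, 57 were below 0. None passed over all 54613 probe sets in limma, beside 0%, and at an unadjusted p under 0.05 12 were lower and 3 higher, beside 6.14% and 8.96% of all probe sets. Sign followed signal. Of the 12 probe sets with a mean under 6, 5 were below 0 with a median of 0.050, beside 31.0% and 0.055 for probe sets of all other genes. Of the 18 with a mean from 10 to 12, 16 were below 0 with a median of −0.089, beside 89.1% and −0.083. Of the 6 from 8 to 10, 5 were below 0 with a median of −0.12, beside 76.7% and −0.065. Of the 7 at 14 and over, 5 were below 0 with a median of −0.016, beside 64.8% and −0.012. The cytoskeletal probe sets had medians close to those of other genes in these ranges, apart from the 6 between 8 and 10, which lay lower. The ranges were chosen after the values had been seen. The share of all probe sets with no overlap between the groups is not given here. No overlap at a single probe set is thus a description without a background.

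Within a gene the same ordering appeared at the bright end. Of the 12 genes with 2 or more probe sets above a mean of 10, the dimmest of these had the lower difference in 8. Over all 12 genes the difference of the dimmest minus that of the brightest had a median of −0.095. For CFL1 the dimmer differed by −0.34 and the brighter by −0.015, and for DSTN by −0.14 and −0.0030. ARPC2 went the other way, at −0.043 and −0.13. Of the 19 genes with several probe sets, 6 had all of them below 0. The part of signal level in these disagreements was not tested.

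**Figure D5:**
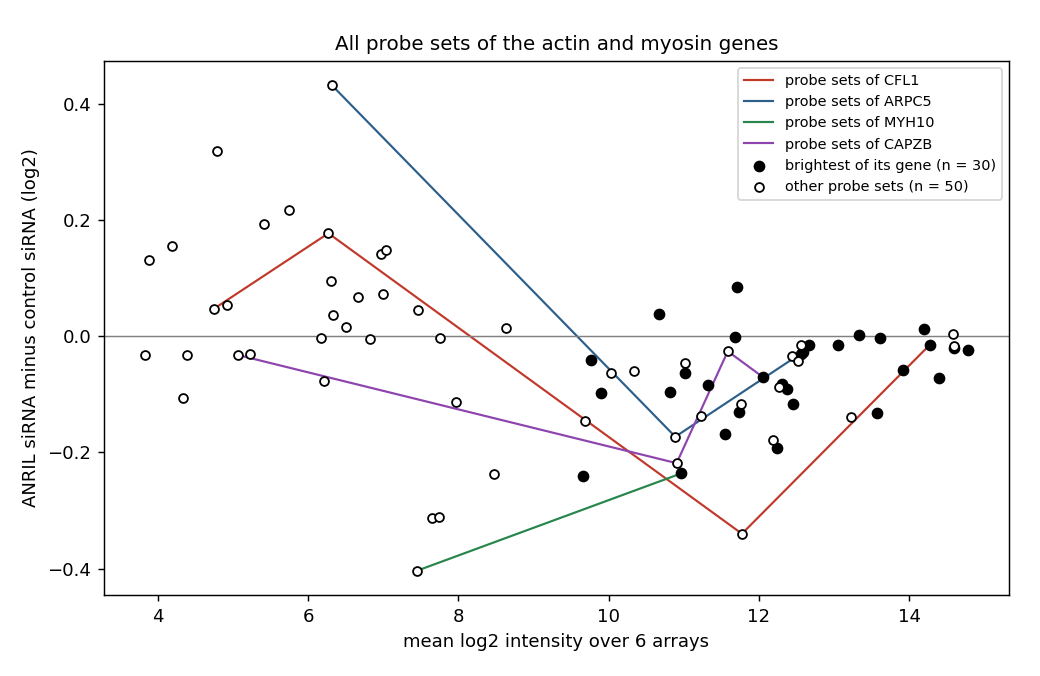
Each point is 1 of the 80 probe sets of the actin and myosin genes, placed by its mean log2 intensity over 6 arrays (x axis) and its difference (y axis, ANRIL siRNA minus control siRNA, log2), filled where it is the brightest of its gene, with lines joining the probe sets of CFL1, ARPC5, MYH10 and CAPZB. Dim probe sets spread to both sides of 0 up to 0.43 for ARPC5, those between 8 and 13 lie mostly below 0, and those above 14 lie near 0.

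The wider actin pathway was read from 6 lists that hold 84 other genes. Of the 79 measured, 54 were below 0 and 25 above, with 43 below 0 under cyclic loess, and 0 passed in limma over all genes. Of the 79, 60 lay above the median signal. At an unadjusted p under 0.05 22 of the 79 were lower (27.8%) and 7 higher. Among all genes 8.16% were lower and 9.83% higher, and in decile 10 15.6% were lower. All ANRIL siRNA values lay below all controls for 25 of the 79 (31.6%), and above all of them for 7. The same shares were 12.8% and 10.6% among all genes, and 35.9% and 1.11% in decile 10. The median of the 79 was −0.056, and −0.028 relative to each gene's decile. With the intensity-trended robust prior 10 of 79 passed, beside 2.15% of all genes and 8.49% of decile 10 called lower: NCKAP1, FSCN1, DAAM1, ACTA2, ABI1, FHL2, COTL1, CNN3, TPM2 and SVIL, and all 10 fell. With the same prior FSCN1 and DAAM1 passed, lower, after a second quantile normalization and under cyclic loess, where CCN2 also passed, higher. Without 1 array, 2 to 18 passed lower, with 2 without ANRIL siRNA replicate 1 (FSCN1 and NCKAP1) and 18 without ANRIL siRNA replicate 2.

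By list, the 2 genes of smallest p are named. The WAVE and WASP factors, which switch on the ARP2/3 complex, were below 0 at 12 of 14. NCKAP1 and ABI1, both subunits of the WAVE complex, differed by −0.29 ± 0.072, limma adjusted p = 0.154 and by −0.27 ± 0.072, limma adjusted p = 0.154. Tropomyosins and other side binders were below 0 at 9 of 10, led by TAGLN (−0.22 ± 0.071, limma adjusted p = 0.184), the transgelin gene, and CNN3 (−0.19 ± 0.065, limma adjusted p = 0.193), a calponin.

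Other formins and the Ena/VASP gene EVL were below 0 at 10 of 13, led by the formin genes DAAM1 (−0.32 ± 0.064, limma adjusted p = 0.138) and FHOD1 (−0.22 ± 0.079, limma adjusted p = 0.206). Other capping, severing and bundling genes were below 0 at 14 of 23, led by FSCN1 (−0.32 ± 0.070, limma adjusted p = 0.146), which encodes the bundling protein fascin, and COTL1 (−0.24 ± 0.069, limma adjusted p = 0.167), which encodes a coactosin-like protein. Other actin and myosin isoforms were below 0 at 5 of 10. ACTA2, the smooth muscle alpha-actin, differed by −0.26 ± 0.063, limma adjusted p = 0.147, and MYH14, the heavy chain of myosin IIC, by 0.19 ± 0.058, limma adjusted p = 0.175. Under cyclic loess the WAVE and WASP factors were below 0 at 7 of 14 and the tropomyosin list at 7 of 10. The list of SRF and MRTF regulators and known targets was below 0 at 4 of 9 genes, and at 6 of 9 with arrays centred on their medians, with FHL2 at −0.20 ± 0.059, limma adjusted p = 0.17 and the cofactor MRTFB at −0.20 ± 0.065, limma adjusted p = 0.182, while SRF itself was at 0.0095. With the constant prior none of the genes named from these lists passed over all genes, while ABI1, ACTA2, DAAM1, FSCN1 and NCKAP1 passed, lower, when only genes above the median signal were tested, beside 2.57% of those genes.

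Endothelial markers were present, with mean log2 intensities from 9.50 to 13.48. All 10 were below 0, with a median of −0.17, and 9 were under cyclic loess. Their summed linear intensity was 35923 to 38613 with ANRIL siRNA and 40446 to 43189 with control siRNA. TIE1 (−0.42 ± 0.060, limma adjusted p = 0.125), an endothelial receptor kinase, and CLDN5 (−0.34 ± 0.060, limma adjusted p = 0.125), a tight junction gene, led them. Relative to each gene's own decile, the median difference was 0.0081 for the cytoskeletal genes and −0.10 for the endothelial markers, 2 values whose difference was not tested.

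Markers of other cells were mostly dim. The leukocyte marker PTPRC and the epithelial marker CDH1 lay in decile 1, while the fibroblast marker COL1A1 lay in decile 8 and ACTA2 in decile 9. Of 7 smooth muscle markers 5 lay in the lower 5 deciles and 2 were below 0. Their summed intensity was 1842 to 1911 with ANRIL siRNA and 2039 to 2123 with control siRNA. This sum was mostly ACTA2, by far the brightest of the list at a mean of 10.34, while the median difference of the list was 0.17. ACTA2 had the lowest difference, and LMOD1 was at 0.18 ± 0.081, limma adjusted p = 0.276. Fibroblast markers were below 0 at 4 of 6, with a median of −0.067. They summed to 944 to 1032 with ANRIL siRNA and 906 to 948 with control siRNA, a sum that was mostly COL1A1. COL3A1 was at −0.18 ± 0.059, limma adjusted p = 0.184, and COL1A1 at 0.15 ± 0.071, limma adjusted p = 0.304. Epithelial markers were below 0 at 1 of 5, and summed to 334 to 353 with ANRIL siRNA and 311 to 345 with control siRNA. ESRP1 was at 0.30 ± 0.077, limma adjusted p = 0.154, and CLDN4 at 0.095 ± 0.060, limma adjusted p = 0.421. Leukocyte markers were below 0 at 1 of 6, and summed to 450 to 499 with ANRIL siRNA and 400 to 438 with control siRNA. CD3E was at 0.22 ± 0.076, limma adjusted p = 0.199, and CD3D at 0.19 ± 0.080, limma adjusted p = 0.254. Markers of skeletal and cardiac muscle were below 0 at 2 of 5, and at 3 of 5 under cyclic loess, and summed to 362 to 382 with ANRIL siRNA and 345 to 385 with control siRNA. MYH7 was at 0.17 ± 0.081, limma adjusted p = 0.29, and ACTA1 at −0.12 ± 0.11, limma adjusted p = 0.588. Their part in the cytoskeletal differences was not tested.

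Promoters were examined for features that the cytoskeletal genes share. Of the 30 genes, 26 matched the RefSeq windows of GRCh38.p14, each 300 bases long, some genes with several. ACTB, ARPC1B, CTTN and PFN2 had no window, so their promoters were not searched for either motif. The GC box GGGCGG, the core of an Sp1-type site, was searched on both strands. At least 1 window held it in 25 of 26 genes (96.2%), beside 78.7% of other genes in the brightest decile and 48.3% of all genes with a window. VASP was the gene without it. The CArG box, the known binding motif of SRF, was found in 1 of 26 genes (3.85%), ACTN1, beside 2.46% of other genes in the brightest decile and 1.60% of all genes. Genes with several windows had more chances of a match, and per window the GC box was in 74.4% of 43 windows, beside 66.0% in the brightest decile. A match is only a match of letters, and no match says nothing of sites outside the window. The windows of VASP and MYH10 are shown because these genes had the lowest differences. ACTN1 had several windows, and the 1 shown is the window among them that holds the CArG box. The other windows of ACTN1 held no CArG box. Capitals mark the GC box in MYH10 and the CArG box in ACTN1, and the VASP window holds neither.
VASP promoter (chr19:45507229-45507528, plus strand): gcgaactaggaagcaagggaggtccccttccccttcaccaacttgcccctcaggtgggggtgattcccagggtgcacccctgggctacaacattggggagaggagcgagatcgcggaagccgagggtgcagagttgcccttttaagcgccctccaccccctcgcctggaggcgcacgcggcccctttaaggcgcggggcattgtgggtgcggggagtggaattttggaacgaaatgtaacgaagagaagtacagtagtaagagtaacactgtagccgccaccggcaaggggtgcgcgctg
MYH10 promoter (chr17:8630676-8630975, minus strand): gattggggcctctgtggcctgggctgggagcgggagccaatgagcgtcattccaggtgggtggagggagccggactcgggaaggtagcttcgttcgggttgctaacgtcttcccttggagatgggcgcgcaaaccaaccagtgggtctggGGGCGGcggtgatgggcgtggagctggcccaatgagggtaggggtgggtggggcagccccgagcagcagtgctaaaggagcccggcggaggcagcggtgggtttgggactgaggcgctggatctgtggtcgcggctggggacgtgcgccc
ACTN1 promoter (chr14:68977517-68977816, minus strand): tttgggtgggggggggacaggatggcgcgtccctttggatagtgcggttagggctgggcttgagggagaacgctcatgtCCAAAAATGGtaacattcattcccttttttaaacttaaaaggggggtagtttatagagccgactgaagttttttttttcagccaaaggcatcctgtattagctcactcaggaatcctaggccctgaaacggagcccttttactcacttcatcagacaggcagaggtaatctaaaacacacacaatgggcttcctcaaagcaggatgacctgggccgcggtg
MYH10 held 1 GC box and VASP none in the windows shown, and both genes had differences below their decile's median.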

How the data were processed

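Total RNA of 6 HUVEC samples, 3 with ANRIL siRNA and 3 with control siRNA, was hybridised to 1 array each. The values are log2 intensities, normalized by the authors with RMA, as deposited; the RMA, affy and limma tools are named per the submitters' processing notes, without versions. The number of arrays limits the precision. Groups came from the sample titles. Probe sets were named from the platform annotation, and 62 control probe sets were left out of the tests. Of the 54613 probe sets tested, 41091 carried 1 symbol, 1801 several and 11721 none. Of the 41091, 41037 were matched to a RefSeq gene by gene identifier.

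Groups were compared with limma 3.58.1 in R 4.3.3 (lmFit and eBayes, constant prior) on 1 probe set per gene and, separately, on all probe sets, with Benjamini-Hochberg adjustment and a threshold of 0.05. The script was tested on simulated data. The 35 genes, the 6 pathway lists and the 6 marker lists were chosen with earlier results of these data known. Some related genes are not reported here. All 35 genes were named; array values were given for the 10 of smallest p, for ACTB, MYH9, PFN1 and CFL1, and for the largest positive difference, and 2 genes of smallest p were named per list. Other genes and probe sets were named after their values were seen. Alternatives changed the prior, the array weights, the scaling, the filter, the probe set rule, the replicate block and the arrays used.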

Additional observations from a re-analysis of the deposited data

How the results depend on the processing

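The call of 0 genes among the 30 held at the constant prior with array weights, under all 3 other scalings, with probe sets averaged within a gene, with _s_at and _x_at probe sets left out (22 genes tested) and without any 1 array. Deviations of same-numbered arrays correlated at 0.038, 0.18 and −0.024 for replicates 1, 2 and 3. The highest correlation with a differently numbered array of the other group was −0.0014, 0.024 and 0.18. Values so few cannot tell whether the labels' replicate numbers pair the samples. With the replicate block 0 genes and 0 of the 30 were called, the smallest adjusted p being 0.173 in limma. The trended prior called 426 genes lower and 115 higher, 315 probe sets lower and 29 higher, 5 of the 30 and 10 pathway genes. Testing only features above the median signal called 254 genes lower and 55 higher, 1 probe set lower, 1 of the 30 and 5 pathway genes. Centring the arrays on their medians called 31 genes lower and 1 higher and 4 probe sets lower. A threshold of 0.2 called 3 of the 30, beside 3.82% of all genes and 6.77% of decile 10 called lower. Combinations of the trended prior with other choices were added after seeing the data. In these, 75 genes were lower and 57 higher with cyclic loess, and 69 lower and 56 higher with a second quantile normalization. Without ANRIL siRNA replicates 1, 2 and 3 the trended prior called 114, 1118 and 116 genes lower, 16, 350 and 24 higher, and 0, 7 and 1 of the 30. Without control siRNA replicates 1, 2 and 3 it called 102, 38 and 402 lower, 33, 2 and 100 higher, and 1, 0 and 3 of the 30.

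The downward tendency depended on the scaling. A second quantile normalization left 15 of 30 below 0, 5 without overlap lower and 3 higher (10.6% and 14.5% of decile 10), and a median of 1.1e-05. Cyclic loess left 13 below 0, 3 without overlap lower and 6 higher (10.8% and 17.2% of decile 10), and a median of 0.015, while the median of all genes in decile 10 went to 0.010. Centring gave 20 without overlap lower (47.8% of decile 10, 19.2% of all genes). Dropping _s_at and _x_at probe sets gave 5 of 22 lower (28.9% of decile 10), and averaging probe sets gave 2 higher (3.54% of decile 10). Leaving out 1 array gave 24 to 28 below 0, 11 to 16 lower (36.8% to 63.7% of decile 10) and 0 to 1 higher. The ACTB end difference lay between 0.13 and 0.25 without 1 array. Its 3′ minus middle version was 0.035 (two-sided exact permutation p = 0.1, the smallest possible).

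Of the 30 differences 20 changed sign under at least 1 alternative and 10 did not, VASP, MYH10, PFN1, MYH9 and ARPC2 among those. With the second quantile normalization these became positive: CFL1 0.0010, CFL2 0.0047, DSTN 0.031, ARPC5 0.050, CTTN 0.092, ENAH 0.027, CAPZA1 0.042, CAPZB 0.013, ACTN1 0.047, ACTN4 0.043 and MYL12A 0.048. With cyclic loess these did: ACTB 0.043, TMSB10 0.037, CFL1 0.052, DSTN 0.070, ARPC5 0.051, CTTN 0.079, ENAH 0.018, CAPZA1 0.062, CAPZB 0.0096, ACTN1 0.060, ACTN4 0.037, MYL12A 0.048 and MYL12B 0.012. With arrays centred ACTR3 was −0.048, ARPC4 −0.012 and MYL6 −0.037. With array weights DSTN was 0.00041 and ACTR3 −0.0019. With probe sets averaged ARPC4 was −0.013, ARPC5 0.077, DIAPH1 0.016, ENAH 0.029, CAPZA1 0.058 and MYL12A 0.028. Without _s_at and _x_at probe sets GSN was 0.015, ACTR3 −0.034, CAPZA1 0.13 and MYL6 −0.0030. Leaving out 1 array gave ranges of −0.055 to 0.025 for CFL1, −0.013 to 0.0078 for DSTN, −0.0065 to 0.013 for ACTR3, −0.020 to 0.15 for ARPC1B, −0.025 to 0.079 for ARPC4, −0.020 to 0.025 for CTTN, −0.10 to 0.0070 for ACTN4 and −0.052 to 0.0025 for MYL12A. The cause of these shifts was not tested. Detection calls were not used here, so for the 12 probe sets with a mean under 6 signal was not separated from background.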
